A study of Arabidopsis thaliana with 6 samples.

Results

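Dehydrins are a family of very hydrophilic, largely unfolded plant proteins that carry lysine-rich K-segments and accumulate when cells lose water, freeze or receive the hormone abscisic acid (ABA). They are the group 2 late embryogenesis abundant (LEA) proteins, and several of them bind membranes, metals or client proteins in vitro. Their genes are known targets of the CBF/DREB factors of cold and drought response, which bind the CRT/DRE element, and of the ABF factors of ABA response, which bind the ABRE element. The 10 Arabidopsis thaliana dehydrin genes were taken by their locus codes from the deposited table of 33602 genes: COR47 (AT1G20440), ERD10 (AT1G20450), ERD14 (AT1G76180), AT4G38410, RAB18 (AT5G66400), XERO1 (AT3G50980), AT2G21490, AT4G39130, LTI30 (AT3G50970, also XERO2) and HIRD11 (AT1G54410). All 10 had a row. Messenger RNA libraries were made from leaves of plants 25 days old, grown under long days. The groups were 3 libraries of the pub2pub4 double mutant, mutated in 2 genes for U-box ubiquitin ligases studied in immunity, and 3 libraries of wild type. Both groups are labelled mock. The labels do not describe the mock treatment, the alleles, the accession of the plants or whether replicates came from separate plants. The p-values therefore measure the spread between these libraries, which may be technical.

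In pub2pub4 leaves COR47 and ERD10, which are neighbours on chromosome 1, rose to 2.45 and 2.51 times their wild-type level. LTI30 and RAB18 had fitted ratios of 2.83 and 2.78, from far lower levels, and missed the threshold. ERD14 had a ratio of 1.32 that also missed it. HIRD11, the most abundant dehydrin transcript of these leaves, had a ratio of 0.994. XERO1, AT4G38410, AT2G21490 and AT4G39130 were at or near 0 in both genotypes. Of the 10 genes, 2 rose, 0 fell, 4 did not pass the test and 4 had too few counts to be tested. The 2 called numbered 5 by DESeq2, 4 by limma-voom and 4 in the fit with a replicate block, all higher in the mutant. Over all tested genes, DESeq2 called 7.68% in either direction and 3.95% higher, limma-voom 3.82% and 2.17%, and the fit with the block 5.6% and 2.57%. Of the tested dehydrin genes, 0 were lower at an unadjusted p under 0.05 by edgeR, and 0 were called lower by DESeq2 or limma-voom. Over all 19019 tested genes, 4.46% were called at an adjusted p under 0.05, and 2.49% were called higher in the mutant. A call here means an adjusted p under 0.05 in edgeR's quasi-likelihood test with Benjamini-Hochberg adjustment over all tested genes.

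Libraries held 20572341 to 20732799 expected counts in pub2pub4 and 20506882 to 20595904 in wild type. Levels within a gene are given as CPM, counts scaled by the TMM-corrected library size, and levels between genes as TPM, which also divide by gene length. The mutant label was checked on the targeted genes: PUB2 was at 0.504 ± 0.108 CPM in pub2pub4 and 9.05 ± 1.44 CPM in wild type (SD, n = 3 each), and PUB4 at 3.22 ± 0.745 CPM in pub2pub4 and 21.02 ± 2.36 CPM in wild type (SD, n = 3 each). The summed level of 5 mesophyll markers was 23027 to 26978 CPM in pub2pub4 and 25150 to 26797 CPM in wild type, and 5 seed and embryo markers summed to 0.735 to 0.888 CPM in pub2pub4 and 0.394 to 0.623 CPM in wild type, with CRC and OLEO1 at 0. The 3 root markers summed to 234, 125 and 46.7 CPM in pub2pub4 libraries 1, 2 and 3, against 74.9 to 93.1 CPM in wild type. The part of that spread in the dehydrin values was not tested.

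**Figure D1:**
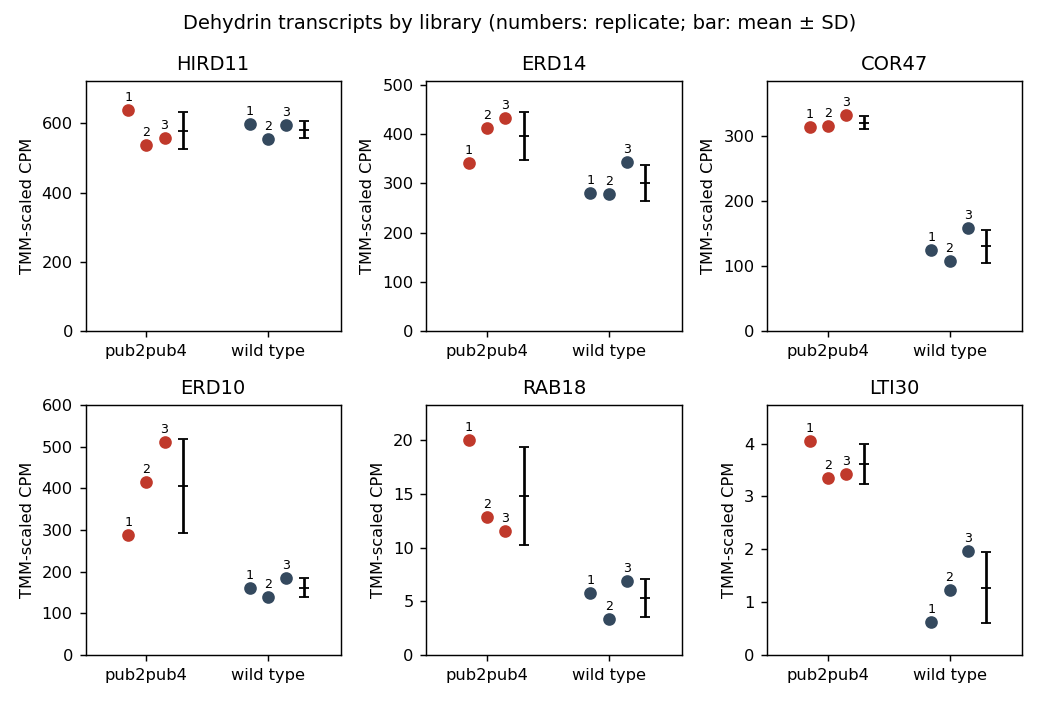
TMM-scaled CPM of the 6 tested dehydrin genes in each library, pub2pub4 in red and wild type in dark blue, with the replicate number at each point and the mean ± SD beside it (n = 3 each). COR47, ERD10, RAB18 and LTI30 have all 3 pub2pub4 libraries above all 3 wild-type libraries, as do 13.4% of all tested genes. ERD14 overlaps by 1 library pair, and HIRD11 overlaps throughout.

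Upstream sequences of the 6 tested genes are shown because dehydrin genes are known targets of cold and ABA factors. Whether these factors had a part in the changes was not tested. Positions and sequences are from the RefSeq TAIR10.1 genome and annotation, and the deposited table has no coordinates. The ABRE core was searched as ACGTG and the CRT/DRE core as CCGAC, each on both strands, so that a palindromic CACGTG counts as 2 overlapping matches. In the lines that follow the matches are in capitals, and each sequence is read 5′ to 3′ on the strand of its gene. The first 3 are the intergenic bases just before the annotated start of LTI30 (chr3:18940429-18940642, plus strand), ERD14 (chr1:28587932-28588181, minus strand) and HIRD11 (chr1:20310851-20311100, minus strand). The others are single sites with 8 flanking bases, since the annotated transcripts of COR47 and ERD10 begin 1209 and 499 bases before the coding start, and the bases just before RAB18 lie within the gene PLP3b (AT5G66410). They are the CRT/DRE sites of ERD10 (chr1:7089365-7089393, minus strand) and COR47 (chr1:7085920-7085940, minus strand), the ABRE site of COR47 (chr1:7086109-7086129, minus strand) and the 4 ABRE sites of RAB18 (chr5:26519598-26519618, chr5:26519546-26519566, chr5:26519453-26519473 and chr5:26519368-26519388, minus strand). The lines do not hold every match. ERD10 also had ABRE sites at 998 and 912 bases before its coding start, and RAB18 had CRT/DRE sites at 631 and 206 bases before its own.
LTI30 upstream: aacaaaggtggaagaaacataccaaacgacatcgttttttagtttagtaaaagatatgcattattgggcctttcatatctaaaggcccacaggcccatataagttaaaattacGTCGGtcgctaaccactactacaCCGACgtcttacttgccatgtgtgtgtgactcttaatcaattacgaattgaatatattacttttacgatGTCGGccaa
ERD14 upstream: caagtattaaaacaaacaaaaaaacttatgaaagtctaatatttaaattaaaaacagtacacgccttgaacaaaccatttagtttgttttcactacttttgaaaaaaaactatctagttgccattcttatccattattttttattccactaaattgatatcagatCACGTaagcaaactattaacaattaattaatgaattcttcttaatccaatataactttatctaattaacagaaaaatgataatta
HIRD11 upstream: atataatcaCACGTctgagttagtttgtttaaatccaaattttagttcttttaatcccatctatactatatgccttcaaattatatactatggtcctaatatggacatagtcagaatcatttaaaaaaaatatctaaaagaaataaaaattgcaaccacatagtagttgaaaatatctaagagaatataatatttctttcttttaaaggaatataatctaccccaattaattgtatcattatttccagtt
ERD10 CRT/DRE: ttcatccaCCGACCGACCGACgtaaaaga
COR47 CRT/DRE: ttcatctaCCGACttcaagaa
COR47 ABRE: acttcaacCACGTaaccatag
RAB18 ABRE, 457 bases before the coding start: gacgatgtACGTGtgtatgaa
RAB18 ABRE, 405 bases before: ggagcattACGTGtcctgtta
RAB18 ABRE, 312 bases before: gatatgaaCACGTacttggta
RAB18 ABRE, 227 bases before: aatacgaaCACGTatggcgaa

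The bases before LTI30 held 3 CRT/DRE matches. ERD10 had 3 overlapping CRT/DRE matches in 1 run that begins 278 bases before its coding start, and COR47 had 1 match, 268 bases before its own. In the 1000 bases before the coding start, all 10 dehydrin genes had an ABRE match, against 54.2% of 27443 protein-coding genes, and 7 of 10 had a CRT/DRE match, against 39.4%. HIRD11, XERO1 and AT4G39130 had no CRT/DRE match there. ERD10 and LTI30 had 3 CRT/DRE matches each and AT4G38410 had 5, where 3.18% of all genes had 3 or more. These windows can hold transcribed bases. The window of COR47 lies wholly within its own annotated gene, and the CRT/DRE run of ERD10 lies within that of ERD10. AT4G38410 had no CRT/DRE match in the 120 intergenic bases before it. Its matches at 340 and 244 bases before the coding start lay in its own gene, and those at 985, 937 and 933 beyond the intergenic stretch. ERD14 had 5 ABRE matches, ERD10 and RAB18 had 4 each, and 6.22% of all genes had 4 or more. LTI30, COR47 and HIRD11 had 1 ABRE match each. In the 250 bases before the annotated start, 7 of 10 had an ABRE match, against 22.9% of all genes, and 2 of 10 a CRT/DRE match, against 12.0%. A match is only a run of letters and does not show binding. Among the 6 tested genes, LTI30 and ERD10 had 3 CRT/DRE matches each in the 1000 bases, RAB18 had 2, COR47 and ERD14 had 1 each and HIRD11 had 0. Their log2 fold changes were 1.50 for LTI30, 1.33 for ERD10, 1.48 for RAB18, 1.29 for COR47, 0.40 for ERD14 and -0.01 for HIRD11. Their ABRE matches in the 1000 bases were 1 for LTI30, 4 for ERD10, 4 for RAB18, 1 for COR47, 5 for ERD14 and 1 for HIRD11. In the 250 bases before the annotated start, LTI30 had 3 CRT/DRE matches. ERD10, RAB18, COR47, ERD14 and HIRD11 had 0 there. No test was made over these 6 genes for either motif or window. AT4G38410 had too few counts for a change to be measured.

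**Figure D2:**
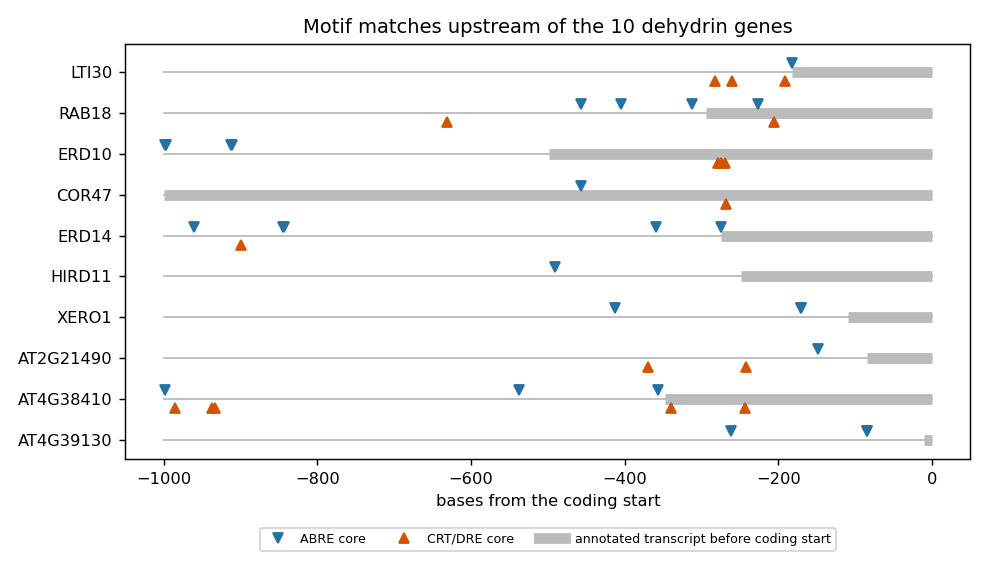
Positions of ABRE core (blue) and CRT/DRE core (orange) matches in the 1000 bases before the coding start of the 10 dehydrin genes, with the annotated transcript drawn thick. Bases from the coding start are on the horizontal axis. The 3 CRT/DRE matches of ERD10 lie together near 270 bases before its coding start, close to the position of the single match of COR47 at 268.

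COR47, ERD10, ERD14 and AT4G38410 are the acidic dehydrins, with a serine run and K-segments. COR47, cold-regulated and known to protect enzymes in vitro, was at 314, 315 and 332 CPM in pub2pub4 libraries 1, 2 and 3 and at 126, 109 and 158 CPM in wild-type libraries 1, 2 and 3. The mutant libraries lay close together, with a coefficient of variation of 3.14%, against 19.3% in wild type, and the groups did not overlap. Of all tested genes, 13.4% had every mutant library above every wild-type library. The log2 fold change of COR47 was 1.29 ± 0.13 (SE), with a 95% interval of 0.99 to 1.59 and an adjusted p of 0.00714. It was called without each of the 6 libraries in turn, with adjusted p-values of 9.21e-04 to 0.0460.

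ERD10, early responsive to dehydration and a chaperone in vitro, was at 289, 416 and 512 CPM in pub2pub4 libraries 1, 2 and 3 and at 162, 138 and 185 CPM in wild-type libraries 1, 2 and 3. The groups did not overlap, but the mutant libraries spread widely, with a coefficient of variation of 27.6%, against 14.4% in wild type. The log2 fold change was 1.33 ± 0.22 (SE, 95% interval 0.78 to 1.88, adjusted p 0.0346). The adjusted p was above the threshold without pub2pub4 2 (log2 fold change 1.31, adjusted p 0.114), wild type 1 (1.33 and 0.121), wild type 2 (1.22 and 0.138) or wild type 3 (1.43 and 0.0691), and with no filter on low counts (1.33 and 0.0543). Calls over all genes fell to 91, 132, 86 and 659 in those 4 fits with fewer libraries, against 848 with all 6.

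COR47 and ERD10 lie 1029 bases apart on the same strand. Their coding sequences share 614 of 746 aligned bases (82.3%), and the longest stretch common to their annotated transcripts is 32 bases, the longest of any dehydrin pair. The read length is not stated, so some reads may have been assigned between them. The log2 ratio of COR47 to ERD10 within a library was 0.12, -0.40 and -0.62 in pub2pub4 libraries 1, 2 and 3 and -0.36, -0.35 and -0.22 in wild-type libraries 1, 2 and 3. The group means differed by 0.01, less than the spread between libraries (exact two-sided permutation p 1.0).

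ERD14, the third acidic member, known to bind calcium when phosphorylated, was at 341, 413 and 433 CPM in pub2pub4 libraries 1, 2 and 3 and at 281, 279 and 343 CPM in wild-type libraries 1, 2 and 3. Wild type 3 lay just above pub2pub4 1, so the groups overlapped. The log2 fold change was 0.40 ± 0.12 (SE, 95% interval 0.13 to 0.66), and the adjusted p was 0.103. Adjusted p-values were 0.0276 by DESeq2 and 0.0351 with a replicate block, so these alternatives called it. Within a library, COR47 and ERD10 stood higher against ERD14 in the mutant. The log2 ratio of COR47 to ERD14 averaged -0.30 ± 0.16 in pub2pub4 and -1.21 ± 0.13 in wild type, and that of ERD10 to ERD14 averaged 0.00 ± 0.24 in pub2pub4 and -0.90 ± 0.11 in wild type (SD, n = 3 each). The differences of 0.91 and 0.90 held in 3 of 3 mutant libraries, and the exact two-sided permutation p was 0.1 for each, the smallest that 3 against 3 can give (0.15 adjusted over the 3 pairs compared). AT4G38410 had 4 counts in pub2pub4 1 and 0 in the other 5 libraries. Its coding sequence is 75.8% identical to that of ERD10 over 466 aligned bases and 74.4% identical to that of ERD14 over 437.

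RAB18, XERO1, AT2G21490 and AT4G39130 have a tyrosine-containing Y-segment besides the serine run and K-segments. RAB18, responsive to ABA and known from guard cells and seeds, was at 20.0, 12.9 and 11.5 CPM in pub2pub4 libraries 1, 2 and 3 and at 5.73, 3.35 and 6.85 CPM in wild-type libraries 1, 2 and 3. The groups did not overlap, with coefficients of variation of 30.8% in pub2pub4 and 33.7% in wild type. The log2 fold change was 1.48 ± 0.32 (SE, 95% interval 0.71 to 2.24), with an adjusted p of 0.0586. It was below the threshold by DESeq2 (2.02e-05), limma-voom (0.0475) and in the fit with a replicate block (0.0489). The 3 guard cell markers summed to 52.5 to 59.2 CPM in pub2pub4 and 56.8 to 65.4 CPM in wild type. The annotated spans of RAB18 and PLP3b, on the other strand, overlap by 11 bases, and PLP3b was at 15.9 CPM in pub2pub4 and 14.8 CPM in wild type. Whether the counting used strand is not stated.

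XERO1 had 2, 3 and 0 counts in pub2pub4 libraries 1, 2 and 3 and 0, 0 and 1 in wild-type libraries 1, 2 and 3. AT2G21490 and AT4G39130 had 0 counts in all 6. A count of 0 allows up to 3 counts in a library, a level of 0.145 to 0.146 CPM in pub2pub4 and 0.146 CPM in wild type. This limit covers counting error only. No difference between genotypes could be detected for these genes at this depth.

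LTI30 has K-segments without a serine run or Y-segment and is known to bind membranes. Its counts were 85, 68 and 70 in pub2pub4 libraries 1, 2 and 3 and 13, 25 and 41 in wild-type libraries 1, 2 and 3. These are 4.06, 3.35 and 3.43 CPM in pub2pub4 and 0.626, 1.23 and 1.96 CPM in wild type. The groups did not overlap, and the wild-type libraries varied the more, with a coefficient of variation of 52.6%, against 10.7% in pub2pub4. The log2 fold change was 1.50 ± 0.35 (SE, 95% interval 0.70 to 2.30, adjusted p 0.0526). It passed the threshold without wild type 3 (0.0278), by DESeq2 (0.00336), by limma-voom (0.0484) and with no filter (0.0403). XERO1, the next gene on the same strand, starts 313 bases beyond the end of LTI30.

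HIRD11, a short histidine-rich dehydrin known to bind metal ions, has a coding length of 297 bases. It was at 639, 538 and 557 CPM in pub2pub4 libraries 1, 2 and 3 and at 597, 554 and 594 CPM in wild-type libraries 1, 2 and 3. The groups overlapped. The log2 fold change was -0.01 ± 0.08 (SE, adjusted p 0.970), and its 95% interval of -0.19 to 0.18 corresponds to 0.874 to 1.13 times the wild-type level.

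**Figure D3:**
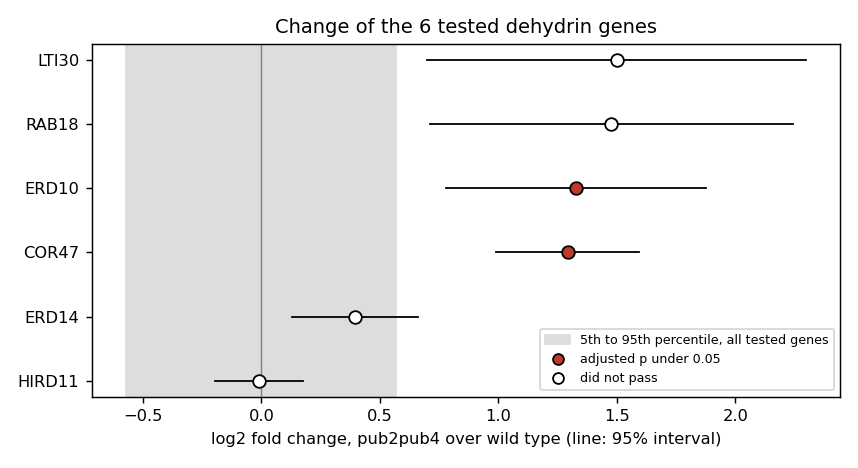
Log2 fold changes (pub2pub4 over wild type) of the 6 tested dehydrin genes, with 95% intervals as lines, filled where the adjusted p is under 0.05. The grey band runs from -0.57 to 0.57, the 5th to 95th percentile of all tested genes. LTI30, RAB18, ERD10 and COR47 lie to its right at 1.29 to 1.50, and ERD14 and HIRD11 lie within it.

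Among all tested genes the median log2 fold change was 0.01, and 1.76% of genes had one of at least 1. COR47, ERD10, RAB18 and LTI30 stood at the 99.0, 99.0, 99.2 and 99.3 percentile of fold change, ERD14 at the 91.3 and HIRD11 at the 46.6 percentile. The median of the 6 tested dehydrins was 1.31. The 6 are those with enough reads in leaves, so this value describes them and not the family. In wild type, library 3 had the highest value of COR47, ERD10, ERD14, RAB18 and LTI30. In the mutant, library 1 had the highest value of RAB18, LTI30 and HIRD11 and the lowest of ERD10 and ERD14. COR47 hardly differed between mutant libraries 1 and 2, at 314 and 315 CPM. Library 1 was also the one with 234 CPM of root markers. The members thus differed in which mutant library was high.

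**Figure D4:**
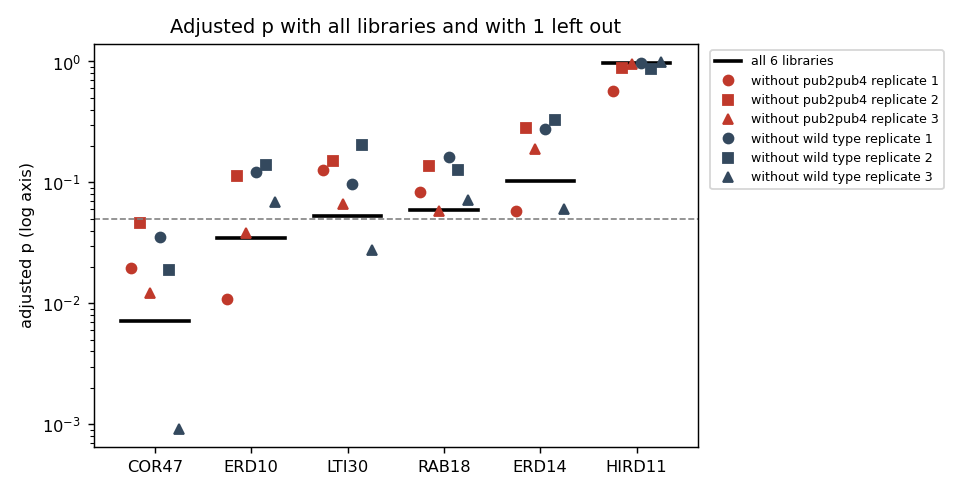
Adjusted p (log axis) of each tested dehydrin gene with all 6 libraries (black line) and with 1 library left out (symbols, red for pub2pub4 and dark blue for wild type), with the threshold of 0.05 dashed. COR47 stays under the line in all 6 fits, ERD10 in 2, LTI30 in 1, and RAB18, ERD14 and HIRD11 in 0.

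On the per-length scale the order of levels was alike in both genotypes, apart from COR47 and ERD10. HIRD11 stood first with 1062 ± 121 TPM in pub2pub4 and 1071 ± 52.3 TPM in wild type (SD, n = 3 each), and ERD14 second with 519 ± 54.4 TPM in pub2pub4 and 396 ± 48.4 TPM in wild type (SD, n = 3 each). ERD10 and COR47 followed, with 357 ± 93.6 and 351 ± 10.5 TPM in pub2pub4 and with 143 ± 21.0 and 144 ± 28.1 TPM in wild type (SD, n = 3 each). These neighbours did not differ beyond their spread in either genotype. RAB18 was at 22.9 ± 7.58 TPM in pub2pub4 and 8.23 ± 2.80 TPM in wild type, and LTI30 at 6.22 ± 0.800 TPM in pub2pub4 and 2.19 ± 1.15 TPM in wild type (SD, n = 3 each). XERO1 and AT4G38410 were under 0.4 TPM in every library and overlapped each other. Every other neighbour in the order down to XERO1 was separated in all libraries of its genotype.

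The dehydrin genes together took 0.162% to 0.183% of the counts in pub2pub4 libraries and 0.107% to 0.131% in wild-type libraries. Their summed level was 2319 ± 88.7 TPM in pub2pub4 and 1764 ± 138 TPM in wild type (SD, n = 3 each). HIRD11 made up 45.8% ± 5.31 of that sum in pub2pub4 and 60.8% ± 2.73 in wild type (SD, n = 3 each). COR47 and ERD10 held 15.2% and 15.4% of it in pub2pub4, against 8.11% and 8.08% in wild type. ERD14 held 22.4% in both genotypes. In bulk leaf RNA, a change in the number of cells of a type and a change in RNA per cell cannot be told apart.

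Of 36 LEA genes outside the dehydrins, 10 had enough counts to be tested. COR15B and LEA14 rose, 0 fell and 8 did not pass, with a median log2 fold change of 0.67. LEA14 (AT1G01470), of the LEA group with a folded domain, was at 181, 183 and 140 CPM in pub2pub4 libraries 1, 2 and 3 and at 98.6, 84.1 and 107 CPM in wild-type libraries 1, 2 and 3. Its log2 fold change was 0.80 ± 0.13 (SE, adjusted p 0.0209). The seed LEA genes EM1 (AT3G51810) and GEA6 (AT2G40170) were listed at 0 throughout, as were 8 of the 36 in all. The count of called genes was 1 with a replicate block, 1 without pub2pub4 1, pub2pub4 2, wild type 1 or wild type 2, and 4 without wild type 3. Calls over all genes in those fits were 1066, 540, 91, 132, 86 and 659, against 848 (4.46% of those tested) in the main fit. For LEA3, which counts in the median, all 3 libraries reached the minimum count of the filter in pub2pub4 but not in wild type. Without it the median was 0.54.

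Of 12 cold-responsive genes, 11 were tested, of which 7 rose, 0 fell and 4 did not pass, with a median log2 fold change of 1.67. COR15A and COR15B are in this list and in the LEA list. COR413-PM1 (AT2G15970), for a membrane protein of cold response, averaged 290 ± 12.4 CPM in pub2pub4 and 204 ± 9.89 CPM in wild type (SD, n = 3 each; log2 fold change 0.51 ± 0.07 SE, adjusted p 0.0120). COR413IM1 (AT1G29395), for a chloroplast membrane protein, had a log2 fold change of 0.50 ± 0.09 (SE, adjusted p 0.0234). COR15B, LTI78 (also RD29A) and KIN2 had log2 fold changes of 2.77, 2.04 and 1.67, above those of COR47 and ERD10, and the difference between genes was not tested. The count of 7 became 4 without pub2pub4 1, 2 without pub2pub4 2, 1 without wild type 1 and 2 without wild type 2. Calls over all genes fell to 540, 91, 132 and 86 in those fits. With all 6 libraries they numbered 848, of which 474 (2.49% of all tested genes) were higher in the mutant. For LTI65, one of the 7, and for KIN1, which was not called, all 3 libraries reached the minimum count in pub2pub4 but not in wild type. Without these 2 genes, 6 of 9 rose and the median was 1.30. The stricter filter, at 5 CPM, called 5 of a different 9, since it left out LTI65 and ELIP1 but kept KIN1. For KIN1, COR15A and COR15B, all 3 libraries reached 5 CPM in pub2pub4 but not in wild type.

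Of 19 transcription factor genes of cold, drought and ABA response, 16 were tested, of which ABF2 and ABF3 rose, 0 fell and 14 did not pass, with a median log2 fold change of 0.31. For ABI5 alone among the 16, all 3 libraries reached the minimum count in pub2pub4 but not in wild type, and without it the median was 0.33. ABF3 (AT4G34000), a bZIP factor that binds ABRE elements, was at 40.2, 53.0 and 61.0 CPM in pub2pub4 libraries 1, 2 and 3 and at 26.6, 18.6 and 23.5 CPM in wild-type libraries 1, 2 and 3. Its log2 fold change was 1.17 ± 0.19 (SE, adjusted p 0.0263). ABF2 (AT1G45249), of the same group, had 0.63 ± 0.13 (SE, adjusted p 0.0380). The count of called regulators was 0 without pub2pub4 2 or without any single wild-type library, 1 without pub2pub4 3 and 5 without pub2pub4 1. Calls over all genes were 540, 91 and 1210 without pub2pub4 1, 2 and 3. They were 132, 86 and 659 without wild type 1, 2 and 3, against 848 (4.46% of those tested) with all 6 libraries. At an unadjusted p under 0.05, 1 regulator was lower by edgeR, as were 0 genes of the LEA and cold lists. That regulator was SR1 (AT2G22300, also CAMTA3), with a log2 fold change of -0.22 ± 0.08 (SE, adjusted p 0.191). DESeq2 and limma-voom called 0 lower in these 3 lists. CBF1, CBF2 and DREB1A were chosen after their values were seen. So were RD26, with a log2 fold change of 1.44 ± 0.44 (SE, adjusted p 0.162), and DREB2A, with 0.77 ± 0.19 (SE, adjusted p 0.0632). Of the 16 tested regulators, 12 had a log2 fold change above 0 and 4 below. CBF1 was at 4.44, 9.57 and 15.2 CPM in pub2pub4 libraries 1, 2 and 3. In wild-type libraries 1, 2 and 3 it was at 3.32, 2.66 and 3.78 CPM (adjusted p 0.128). DREB1A, also CBF3, had a log2 fold change of 1.25 ± 0.32 (SE, adjusted p 0.105). That of CBF2 was 0.81 ± 0.34 (SE, adjusted p 0.257), and its groups overlapped. ABI3 and ABI4, regulators of seed programmes, were listed at 0.

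**Figure D5:**
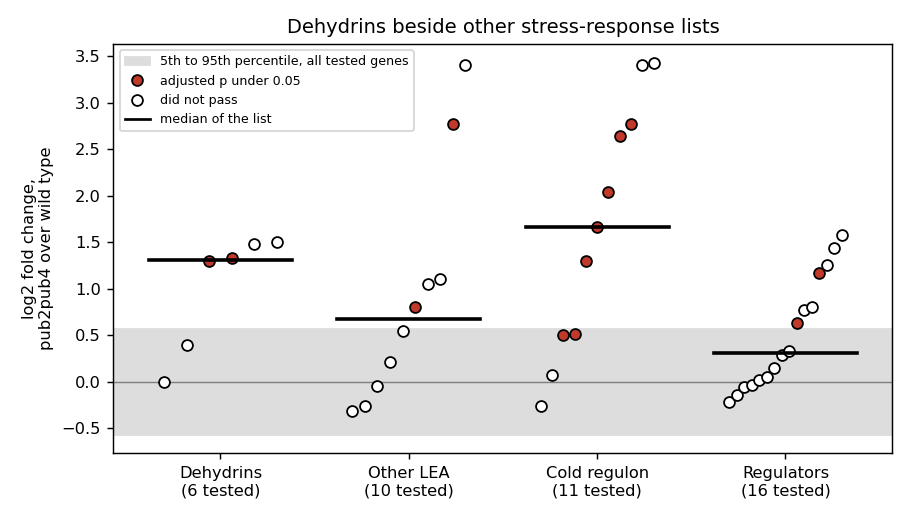
Log2 fold changes (pub2pub4 over wild type) of the tested members of the 4 lists, each point a gene, filled where the adjusted p is under 0.05, with the median of each list as a black line and the 5th to 95th percentile of all tested genes in grey. The medians are 1.31 for dehydrins, 0.67 for other LEA genes, 1.67 for the cold regulon and 0.31 for regulators.

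Profiles were compared with that of COR47 by the root mean square difference of log2 CPM, centred on each gene's mean over the 6 libraries. To each CPM 0.5 was added before the log, which shrinks changes at low levels. The 3 nearest genes were AT3G14395, of unknown function (0.0813), NFYA5 (AT1G54160), for a nuclear factor Y subunit (0.0988), and AT2G41190 (0.127). AT2G41190 is annotated as a transmembrane amino acid transporter family protein. AT3G14395 was at 1.81, 1.68 and 1.62 CPM in pub2pub4 libraries 1, 2 and 3. In wild-type libraries 1, 2 and 3 it was at 0.289, 0.246 and 0.623 CPM. Its log2 fold change was 2.12, against 1.29 for COR47. NFYA5 was at 3.87, 3.99 and 3.53 CPM in pub2pub4 libraries 1, 2 and 3 and at 1.20, 1.13 and 1.82 CPM in wild-type libraries 1, 2 and 3. Among the 19019 tested genes, ERD10 was the 38th nearest to COR47 (0.226), LTI30 the 93rd (0.286) and RAB18 the 114th (0.299). ERD14 was at rank 750 (0.471) and HIRD11 at rank 8988 (0.678).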

How the data were processed

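The authors deposited expected counts (read numbers estimated by a model, so some have decimals) for 6 leaf libraries, with a length per gene; 95.1% of the values were whole within 1e-09. The submitters' processing notes name TAIR10, TopHat2 2.1.0 and RSEM 2.1.30, with no roles. Annotation release, strand setting and read length are not stated there.

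Expected counts were rounded and tested with edgeR 4.0.16 in R 4.3.3: filterByExpr by group (minimum count 10, minimum total 15), TMM, robust quasi-likelihood fit, two-sided, Benjamini-Hochberg over all 19019 genes kept. A check on simulated counts, drawn with the means and dispersions of these data, followed the fits, and its result is not given. Standard errors were derived from the fold change and F, and 95% intervals from the t distribution. TPM used the deposited lengths. Ratios of genes within a library were compared by exact permutation in scipy 1.17.1. The LTI30 and XERO1 ratio was not computed, XERO1 being at 3 counts or fewer. Promoters and gene models are from RefSeq TAIR10.1, which lists 32835 of the deposited identifiers. Protein sequences were not used here.

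The members, lists and alternatives were chosen with earlier results of these data known. The text names all 10 dehydrins, up to 5 called members of each other list with the smallest p, and the 3 genes most like COR47. Alternatives were DESeq2 1.42.0, limma-voom (limma 3.58.1), 2 other scalings, 2 other filters, no rounding, a replicate block and each library left out.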

Additional observations from a re-analysis of the deposited data

How the results depend on the processing

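COR47 was called in all 8 alternatives and in all 6 fits with a library left out. The log2 fold changes of COR47, ERD10, ERD14, RAB18 and LTI30 kept their sign throughout. That of HIRD11, not called in any fit, ran from -0.0878 to 0.0367 with a library left out, above 0 in 4 of 6. The stricter filter left out LTI30, which is under 5 CPM.

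Genes called over the whole table numbered 848, against 1460 by DESeq2 and 86 to 1210 with a library left out. Dehydrins called numbered 2, against 5 by DESeq2, 4 by limma-voom, 4 with the replicate number as a block and 1 to 2 with a library left out. Other LEA genes called numbered 2, against 4 by DESeq2, 1 with the block and 1 to 4 with a library left out. Cold regulon genes numbered 7, with 1 to 7 when a library was left out, and regulators 2, with 6 by DESeq2 and 0 to 5 when a library was left out. The cause of these shifts was not tested. Replicate numbers were not taken as pairs: the correlation of deviations from the group means was 0.128, 0.0624 and 0.154 for numbers 1, 2 and 3, although each library correlated best with its own number. Other scalings moved the median of all genes by -0.02 to 0.00 on the log2 scale. With a library left out, an alternative chosen after seeing the data, the difference in the log2 ratio of COR47 to ERD10 ran from -0.20 to 0.17, beyond the wild-type SD of 0.08 but within the pub2pub4 SD of 0.38. For COR47 to ERD14 it ran from 0.83 to 0.96, and for ERD10 to ERD14 from 0.79 to 1.03. The filter left out genes that reached about 10 counts in fewer than 3 libraries, and with no filter 8 dehydrins and 28 other LEA genes were tested, with 2 called in each list.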

Other observations

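The outer neighbours of the COR47 and ERD10 pair and of LTI30 were also measured. AT1G20430, 498 bases beyond COR47, was at 23.8 CPM in pub2pub4 and 25.8 CPM in wild type, with a log2 fold change of -0.12 ± 0.08 (SE, adjusted p 0.453). AT1G20460, 1334 bases from ERD10 on its other side, was at 3.79 CPM in pub2pub4 and 2.94 CPM in wild type, with a log2 fold change of 0.37 ± 0.20 (SE, adjusted p 0.368). PLP3a (AT3G50960), 214 bases before LTI30, had a log2 fold change of 0.20 ± 0.23 (SE, adjusted p 0.687). None of these 3 neighbours passed the test, and the difference from the dehydrin beside each was not tested.

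The deposited length of COR47 is 1219 bases. The TAIR10.1 annotation gives 2 exons over a genomic span of 2465 bases, intron included, with 1209 genomic bases before the coding start. A span and a transcript length are not the same measure, and the spliced length was not compared. Whether the gene models differ was therefore not tested, and the TPM of COR47 depends on the deposited length.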
